A study of Mus musculus with 2 samples.

Results

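The PDGF receptors and 8 markers of mural cells, the support cells of blood vessels, were followed through the embryonic mouse pancreas. The 10 genes are Pdgfra, Pdgfrb, Rgs5, Abcc9, Kcnj8, Des, Acta2, Tagln, Cspg4 and Mcam, chosen by symbol, and each matched 1 of the 27998 gene rows. The study compared 1 embryo labelled knockout (Dpy30∆P) with 1 control embryo, both C57BL/6 and of embryonic day 13.5. Live cells sorted from each whole pancreas gave 1 droplet library, in which every transcript is counted once through a molecular tag (UMI). The library labelled knockout held 3044 cell barcodes and 28033433 UMIs, and the control library held 3900 barcodes and 32702089 UMIs. Dpy30 is a shared subunit of the complexes that methylate histone H3 at lysine 4, and the labels do not name the driver of its deletion or the cells it acts in.

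With 1 library per group no test between the groups can be made. Intervals below are 95% intervals for counting error alone and do not include differences between embryos. Those of levels and ratios count UMIs pooled over cells and leave out differences between cells as well. Dpy30 itself was not lower in the mesenchyme of the library labelled knockout, with 113 CPM (a gene's summed UMIs scaled to a common library total) against 98.6 CPM in the control. Epithelium had 262 CPM of Dpy30 in the library labelled knockout and 224 CPM in the control. The labels do not say which exons were removed, and counts from the transcript's 3' end outside the removed part check nothing. The libraries shared 22 cell barcodes.

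Mural cells comprise pericytes on capillaries and smooth muscle cells on larger vessels. PDGF-B from endothelium acts through the receptor PDGFRβ to recruit them, while PDGFRα is the receptor typical of fibroblasts and answers mainly to PDGF-A and PDGF-C. Rgs5, a brake on G protein signalling, and the potassium channel formed by the pore subunit Kcnj8 and the sulfonylurea receptor Abcc9 are widely used pericyte markers. The question here was whether these genes mark a group of cells apart from the rest of the mesenchyme.

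Mesenchyme was defined as cells with at least 3 UMIs of the collagen genes Col3a1 and Col1a2 and no passing gate of another lineage. That gave 1956 of 2929 cells kept in the library labelled knockout (66.8%) and 2464 of 3742 in the control library (65.8%). Cells with at least 3 UMIs of Lum, an extracellular matrix proteoglycan gene, are called Lum-high and numbered 153 in the library labelled knockout and 294 in the control. The remaining cells with a UMI of the transcription factor gene Isl1 numbered 451 in the library labelled knockout and 406 in the control. The other mesenchyme held 1352 cells in the library labelled knockout and 1764 in the control. Mesothelium had 168 cells in the library labelled knockout and 188 in the control, and endothelium had only 31 in the library labelled knockout and 27 in the control. Median depth in mesenchyme was 7400.5 UMIs per cell in the library labelled knockout and 6095 in the control, so shares of cells are given unthinned and, where the libraries are compared, also after thinning each cell to 3000 UMIs.

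Kcnj8 and Abcc9 lie beside each other on mouse chromosome 6 (GRCm38), at 142564837 to 142571614 and 142587862 to 142702315, both on the minus strand, with 16247 bases and 0 annotated genes between them. Acta2, which encodes the smooth muscle actin, lies on chromosome 19 at 34241090 to 34255590, minus strand. The promoters of these 3 genes are shown because the first 2 genes were detected together above the product of their shares in both libraries, and Acta2 had the highest variance over mean of the 10 genes in both. Each runs from 250 bases before to 50 bases after the gene's start (RefSeq, GRCm38.p6). For Abcc9 and Acta2 that start lies inside the span given above, which is from GENCODE M21. Capitals mark TGGGAA, the core bound by RBPJ, the DNA-binding partner of Notch.
Abcc9: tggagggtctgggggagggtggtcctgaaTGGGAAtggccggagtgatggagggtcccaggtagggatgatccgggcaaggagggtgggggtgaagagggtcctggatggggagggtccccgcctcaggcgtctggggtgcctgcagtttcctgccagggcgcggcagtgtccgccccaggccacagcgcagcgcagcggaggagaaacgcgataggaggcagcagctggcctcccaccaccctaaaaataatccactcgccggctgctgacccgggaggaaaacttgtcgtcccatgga
Kcnj8: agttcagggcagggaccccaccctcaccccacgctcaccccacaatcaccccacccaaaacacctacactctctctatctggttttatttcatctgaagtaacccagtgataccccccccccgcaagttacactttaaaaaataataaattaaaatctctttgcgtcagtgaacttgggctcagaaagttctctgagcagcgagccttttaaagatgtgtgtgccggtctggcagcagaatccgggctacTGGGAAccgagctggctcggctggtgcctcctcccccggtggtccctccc
Acta2: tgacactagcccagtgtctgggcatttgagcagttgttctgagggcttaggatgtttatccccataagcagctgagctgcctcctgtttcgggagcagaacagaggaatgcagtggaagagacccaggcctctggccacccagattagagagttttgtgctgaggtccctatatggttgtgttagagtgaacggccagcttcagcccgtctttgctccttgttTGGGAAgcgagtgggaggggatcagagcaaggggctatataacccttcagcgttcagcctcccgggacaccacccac
Of the 8 members with a promoter entry, these 3 hold TGGGAA on either strand, and 25.6% of all 32851 promoter windows do. The muscle motif CATTCC was found, on the opposite strand, in the windows of Abcc9 and Acta2, and 14.7% of all windows hold it on either strand. In Abcc9 the 2 motifs overlap. An exact match to the CArG box consensus of serum response factor was in none of the 8 windows and in 1.63% of all, and near matches were not searched. A match of letters is a description and not a binding site.

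The receptors were spread through the mesenchyme and were not confined to few cells. Pdgfrb stood at 72.5 CPM in mesenchyme of the library labelled knockout (1109 UMIs) and 146 CPM in the control (2386 UMIs). At least 1 UMI of it was seen in 37.8% of mesenchyme cells in the library labelled knockout and 49.6% in the control. Epithelium, which should lack it, had 3.53% of cells with a UMI in the library labelled knockout and 3.34% in the control, at medians of 14932 UMIs per cell in the library labelled knockout and 13347 in the control. After thinning, the mesenchymal shares were 18.8% in the library labelled knockout and 30.4% in the control, and the epithelial shares 0.706% in the library labelled knockout and 1.12% in the control. The mesenchymal shares thus lie above that background in both libraries.

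Pdgfra had 63.5 CPM in mesenchyme of the library labelled knockout and 60.4 CPM in the control. Its level by group in the library labelled knockout was 83.7 CPM in Lum-high, 67.9 in other mesenchyme and 43.8 in Isl1-positive cells. In the control library the same order held, at 66.8, 62.7 and 47.1 CPM. In both libraries the intervals of Lum-high and other mesenchyme overlap, and those of Isl1-positive cells lie below both. Mesothelium was close to empty of Pdgfra, with 2 UMIs in the library labelled knockout and 3 in the control.

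Of the pericyte markers, Rgs5 and Des were found in about as many mesenchyme cells as the receptors or more, and Abcc9 in fewer. Rgs5 had a UMI in 56.3% of mesenchyme cells of the library labelled knockout and 46.6% of control mesenchyme cells, at 148 CPM in the library labelled knockout and 132 CPM in the control. Des, the intermediate filament of muscle and pericytes, was found in 58.5% of mesenchyme cells of the library labelled knockout and 63.9% in the control. Kcnj8 was found in 31.9% in the library labelled knockout and 31.7% in the control. Abcc9 was found in 18.1% in the library labelled knockout and 15.2% in the control. In epithelium the shares of these 4 genes lay between 0.235% and 4.24% in the library labelled knockout and between 0.478% and 5.25% in the control. After thinning, Rgs5 was found in 32.7% of mesenchyme cells in the library labelled knockout and 29.0% in the control. Thinned shares of Kcnj8 were 17.6% in the library labelled knockout and 19.7% in the control, those of Des 35.4% in the library labelled knockout and 42.7% in the control, and those of Abcc9 8.95% in the library labelled knockout and 8.49% in the control.

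Kcnj8 left the company of the other markers in the mesothelium, the sheet of cells on the outer surface of the organ. There it reached 143 CPM in the library labelled knockout and 139 CPM in the control, with a UMI in 64.3% of cells in the library labelled knockout and 60.6% in the control. Its channel partner Abcc9 had 10.9 CPM there in the library labelled knockout and 9.25 CPM in the control. Rgs5 had 0 UMIs in 168 mesothelial cells of the library labelled knockout, where 3 counts of the total would allow up to 1.79% of cells with a UMI, and 9 UMIs in the control. Mesothelium thus carried Kcnj8 at a level above that of the mesenchyme as a whole, with little Rgs5.

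Mcam, a cell adhesion molecule of endothelium and pericytes, was highest in endothelium, at 30.9 CPM in the library labelled knockout and 52.5 CPM in the control. Mesothelium had 16.6 CPM in the library labelled knockout and 12.5 CPM in the control. Mesenchyme had 3.07 CPM in the library labelled knockout and 4.48 CPM in the control. Cspg4, the proteoglycan NG2 of pericytes, had 5.36 CPM in mesenchyme of the library labelled knockout and 6.38 in the control, and 0 UMIs in endothelium of both. The endothelial values of Mcam rest on 10 UMIs in the library labelled knockout and 15 in the control.

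**Figure D1:**
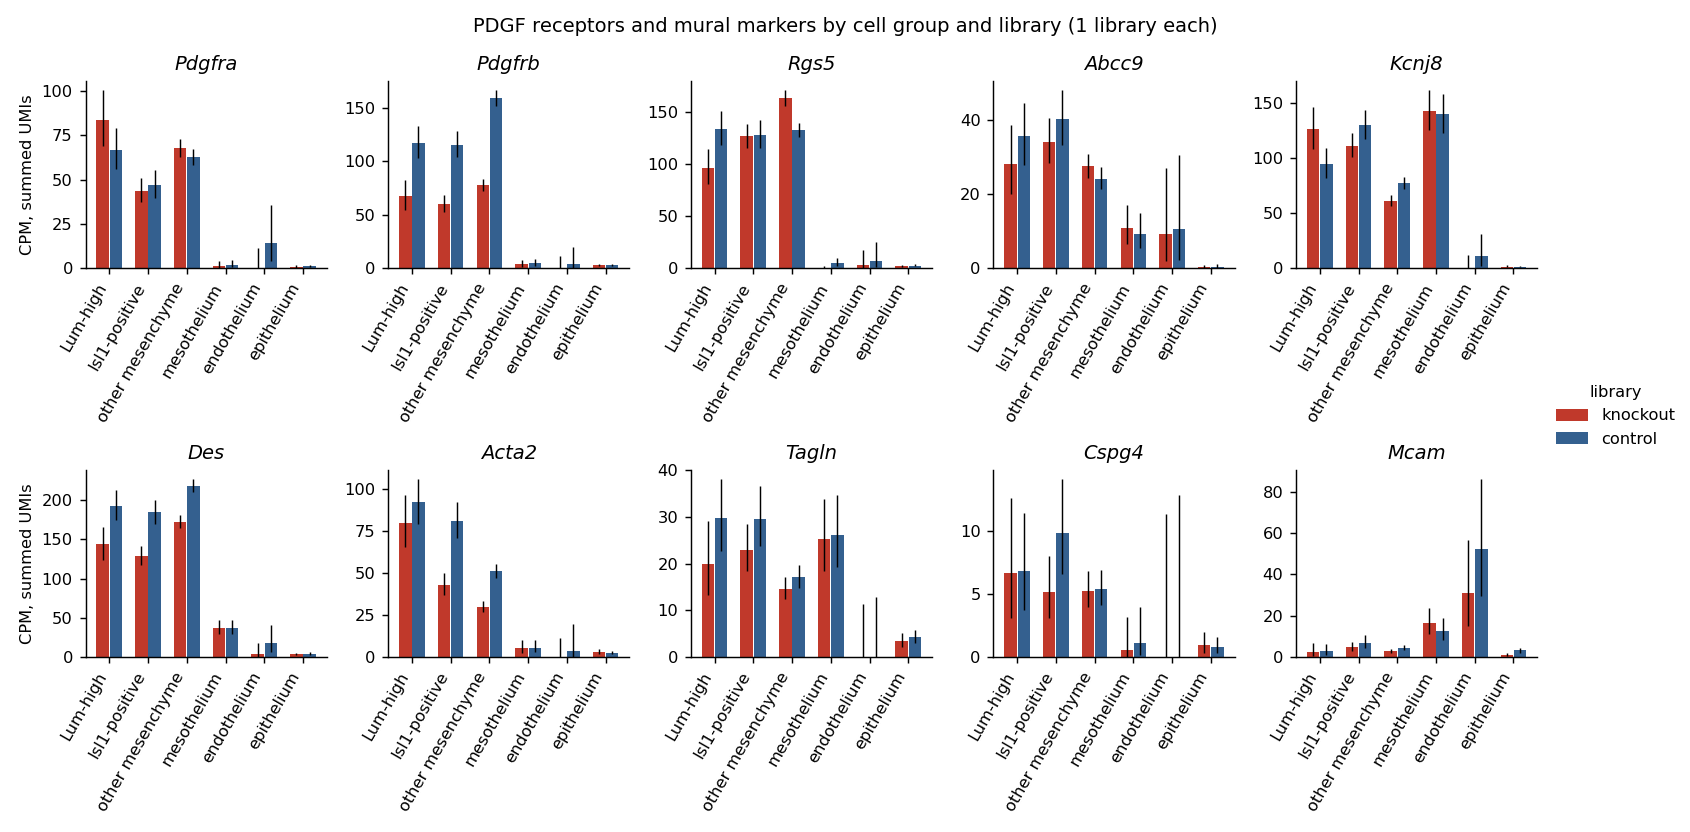
Level of each of the 10 genes (CPM of summed UMIs, own axis per gene from 0) in 6 cell groups, with the library labelled knockout left of the control and 95% Poisson intervals. Pdgfrb in other mesenchyme stood at 77.8 CPM in the library labelled knockout and 159 CPM in the control, and Kcnj8 was as high in mesothelium as in any mesenchymal group.

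Across 16 points (8 cell groups in 2 libraries), the genes whose level was most like that of Pdgfra were Hic1, Prrx1, Ntrk2, Lrrc17 and Amot, with Pearson's r between 0.967 and 0.986. Those most like Pdgfrb were Osr2, Lrrc17, Col6a3, Islr and S1pr3, with r between 0.967 and 0.983. The points share their library and depth, and the values are descriptions. Among the members, Mcam stood apart, with r of -0.16 to Pdgfra and -0.34 to Pdgfrb.

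Of the members, 2 differed between the libraries past the fold used here, and both were lower in the library labelled knockout. A gene was called when the log2 of (CPM + 5) differed by at least 0.5, and it was measured when it had at least 20 UMIs over both libraries. By this rule 2.01% of 12867 measured genes were called in mesenchyme, and 2 of 10 members were. Pdgfrb had a log2 ratio of -0.96 and a fold of 0.496 (0.461 to 0.532), and Acta2 had 37.4 CPM in the library labelled knockout and 61.6 CPM in the control, a log2 ratio of -0.65. With mean CPM over cells in place of summed UMIs, Acta2 came to -0.47 and was not called. With the small group defined below left out, Acta2 had 33.2 CPM in the library labelled knockout and 47.7 CPM in the control. Those values lie closer together than the fold needed for a call. The median over the members was -0.19, beside -0.012 over all measured genes.

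Pdgfrb was lower in the library labelled knockout in each of the 3 mesenchymal groups. In Lum-high cells it had 67.4 CPM in the library labelled knockout and 118 CPM in the control. In Isl1-positive cells it had 59.8 CPM in the library labelled knockout and 116 CPM in the control. In other mesenchyme it had 77.8 CPM in the library labelled knockout and 159 CPM in the control. The 95% intervals of the 2 libraries do not overlap in any of the 3. Calls in either direction made up 13.3% of measured genes in Lum-high, 6.23% in Isl1-positive and 2.36% in other mesenchyme. Called members numbered 1 of 9, 3 of 10 and 2 of 10 in those groups.

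Pdgfra, the sister receptor, did not show this difference, at a fold of 1.05 (0.961 to 1.15) in mesenchyme. Of the ligands, Pdgfa had 18.3 CPM in mesenchyme of the library labelled knockout and 19.6 CPM in the control, and Pdgfc had 10.3 CPM in the library labelled knockout and 7.91 CPM in the control. Pdgfb, the main ligand of PDGFRβ, had 1 UMI in mesenchyme in the library labelled knockout and 0 UMIs in the control. Pdgfd had 3 UMIs in the library labelled knockout and 6 in the control. None of the measured ligands was called.

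Acta2 was lower in Isl1-positive cells (43.0 CPM in the library labelled knockout and 81.2 CPM in the control) and in other mesenchyme (29.8 CPM in the library labelled knockout and 50.9 CPM in the control). In Lum-high cells it stood at 80.0 CPM in the library labelled knockout and 92.2 CPM in the control, and those intervals overlap. Cspg4 was also called in Isl1-positive cells, on 19 UMIs in the library labelled knockout and 29 in the control. Tagln, an actin-binding protein of smooth muscle, had 17.1 CPM in mesenchyme as a whole in the library labelled knockout and 20.9 CPM in the control and was not called.

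Of 12 further genes of the contractile apparatus, 10 were measured in mesenchyme, and 9 of them were lower and 1 higher in the library labelled knockout. None was called, and their median log2 ratio was -0.14. Mylk, the kinase of myosin light chain, had 14.6 CPM in the library labelled knockout and 21.4 CPM in the control. Srf, the transcription factor that drives contractile genes, had 21.3 CPM in the library labelled knockout and 27.8 CPM in the control, below the fold needed for a call. Of 16 other pericyte genes 13 were measured in mesenchyme and 0 were called, 6 higher and 7 lower. In Lum-high cells 3 of 7 measured were called, where 13.3% of all measured genes were. All 3 were higher in the library labelled knockout. They were Heyl (fold 3.47, 1.35 to 9.98), Ndufa4l2 (2.23, 1.10 to 4.62) and Ednra (1.76, 0.996 to 3.14). The interval of Ednra includes no difference. Ndufa4l2 rests on 22 UMIs in the library labelled knockout and 15 in the control. Heyl, a Notch target gene, rests there on 16 UMIs in the library labelled knockout and 7 in the control. In Isl1-positive cells Heyl alone of 9 measured was called, lower in the library labelled knockout at a fold of 0.496. Calls made up 6.23% of all measured genes in that group.

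Rgs5 and Kcnj8 differed in opposite directions in different mesenchymal groups. Rgs5 had 96.3 CPM in Lum-high cells of the library labelled knockout and 134 CPM in the control, but in other mesenchyme 163 CPM in the library labelled knockout and 133 CPM in the control. Kcnj8 had 126 CPM in Lum-high cells of the library labelled knockout and 94.6 CPM in the control, but in other mesenchyme 61.1 CPM in the library labelled knockout and 76.8 CPM in the control. None of these 4 ratios was called. In mesothelium 0 of 5 measured members were called, where 12.5% of measured genes were.

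**Figure D2:**
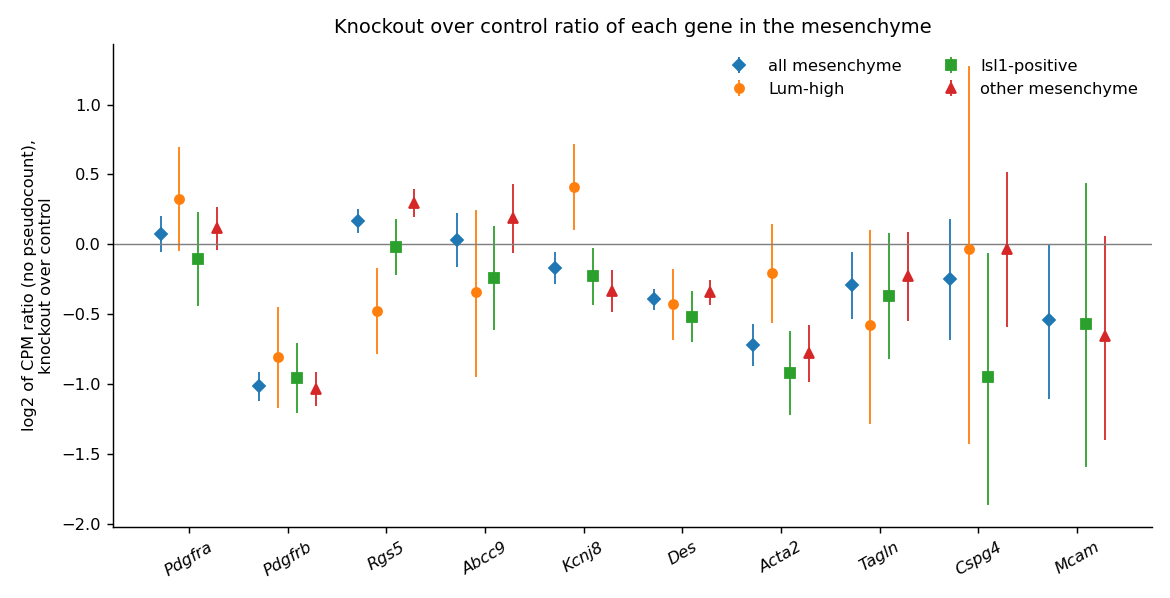
Log2 ratio of CPM without a pseudocount, knockout over control, for each gene in all mesenchyme and its 3 groups, with 95% intervals for counting error; values above 0 are higher in the library labelled knockout. Pdgfrb lies below 0 in all 4, while Rgs5 and Kcnj8 lie on opposite sides of 0 in Lum-high and other mesenchyme.

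Clustering of the mesenchyme separated it into 13 clusters, and 12 of them had at least 20 cells in both libraries. Pdgfrb was lower in the library labelled knockout in 10 of the 12, past the fold in 9. It was higher in cluster 9, led by the matrix gene Mgp and by Stmn2, with 72.3 CPM in the library labelled knockout and 39.1 CPM in the control. It was also higher in cluster 1, led by Krt19 and Cav1, where it was near absent, on 8 UMIs in the library labelled knockout and 2 in the control. Pdgfra had 1 UMI there in each library, and Rgs5 had 2 in the library labelled knockout and 1 in the control. Kcnj8 had 139 CPM there in the library labelled knockout and 205 CPM in the control. Over these genes cluster 1, counted here as mesenchyme, resembled the mesothelium. Its part in the mesenchymal values of Kcnj8 was not tested.

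Within clusters some values rest on few UMIs, and the share of all genes past the fold was not counted. Acta2 was lower in 9 of the 12 clusters, past the fold in 8, and higher in 3, past the fold in 2. The larger of these was cluster 0, with 65.6 CPM in the library labelled knockout and 28.3 CPM in the control, and the other was cluster 1, on 14 UMIs in the library labelled knockout and 3 in the control. Rgs5 was higher in the library labelled knockout in 12 of 12, with log2 ratios between 0.03 and 1.00, 3 of them past the fold. In cluster 1 this rests on 2 UMIs in the library labelled knockout and 1 in the control. The libraries filled the clusters unevenly. Cluster 3 held 469 cells of the library labelled knockout and 113 control cells, and its leading genes include Xist and Tsix. Cluster 11 held 75 cells of the library labelled knockout and 603 control cells, and the part of such differences in the ratios was not tested. Within cluster 3 Pdgfrb had 70.7 CPM in the library labelled knockout and 162 CPM in the control, and within cluster 11 it had 69.9 CPM in the library labelled knockout and 146 CPM in the control.

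Co-detection asked whether the pericyte trio of Rgs5, Abcc9 and Kcnj8 meets in the same cells. In cells thinned to 3000 UMIs, at least 2 of the 3 were seen in 163 of 1932 mesenchyme cells of the library labelled knockout (8.44%, 7.24 to 9.77) and 221 of 2437 in the control (9.07%, 7.96 to 10.3). The product of the single shares gives 178 cells in the library labelled knockout and 216 in the control. At least 2 of the trio were thus found together about as often as independent detection would give. All 3 were seen in 13 cells of the library labelled knockout (product 9.94) and 17 control cells (product 11.8).

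Within the trio, the pairs did not behave alike. Abcc9 and Kcnj8, the 2 subunits of 1 channel, met in 56 cells of the library labelled knockout where the product is 30.4, and in 84 control cells where it is 40.9. Rgs5 and Kcnj8 met in 82 cells of the library labelled knockout against a product of 111, and in 119 control cells against 139. The channel pair was therefore above its product, by 1.84 times in the library labelled knockout and 2.06 times in the control. The pair of Rgs5 and Kcnj8 was below its product. The mesenchyme includes cluster 1, with Kcnj8 and almost no Rgs5, and its part in that pair was not tested. The channel genes were also uneven over clusters. Cluster 2 had 261 CPM of Kcnj8 and 82.5 CPM of Abcc9 in the library labelled knockout. In the control it had 197 and 57.1 CPM. Cluster 1 had less Abcc9, at 13.2 CPM in the library labelled knockout and 21.7 CPM in the control. The part of these differences between clusters in the channel pair was not tested.

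The receptors met as often as their shares predict, in 63 cells of the library labelled knockout (product 67.8) and 133 control cells (product 125). Of Pdgfra-positive cells, 17.5% carried Pdgfrb in the library labelled knockout and 32.4% in the control. Detection of 1 receptor therefore said little about the other within a library.

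Acta2 and Tagln met in 8 cells of the library labelled knockout (product 6.38) and 24 control cells (product 9.56). Acta2 had the highest variance over mean of the members, at 1.94 in the library labelled knockout and 3.20 in the control. It had 50% of its UMIs in 2.28% of mesenchyme cells of the library labelled knockout and 2.01% in the control. Rgs5 needed 10.2% of cells for the same share in the library labelled knockout and 8.95% in the control. The rarer Tagln, Cspg4 and Mcam needed fewer cells than Acta2 in both libraries. A single control cell held 62 UMIs of Acta2, and the highest cell of the library labelled knockout held 27.

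**Figure D3:**
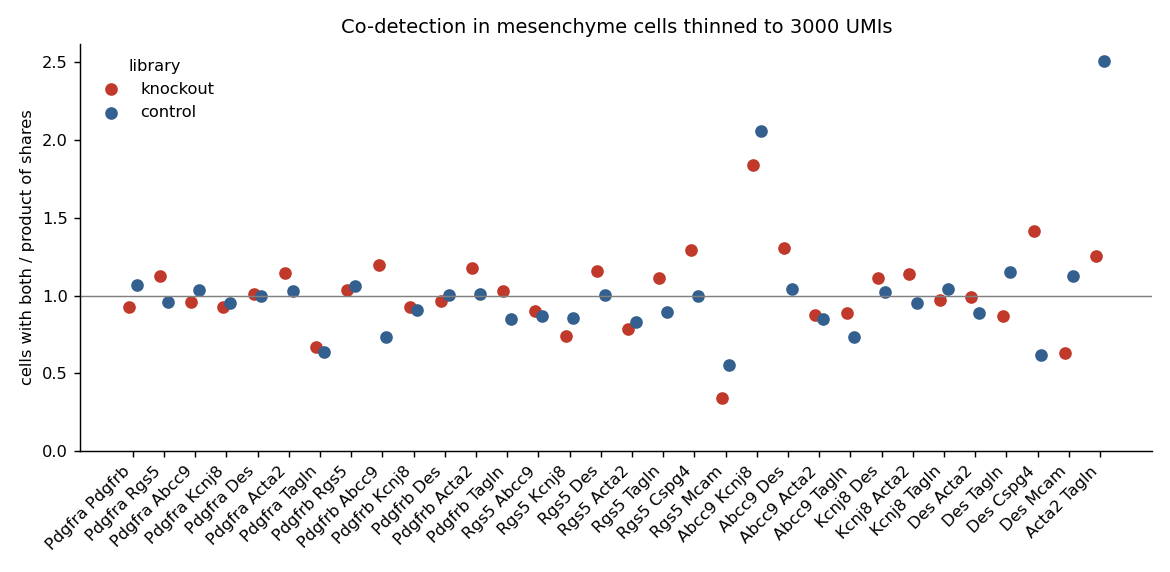
Mesenchyme cells with both genes of a pair, divided by the product of the single shares, for the 32 of 45 pairs with a product of at least 5 cells in both libraries. Points at 1 are pairs that meet as often as independent detection gives; Abcc9 with Kcnj8 lies at 1.84 in the library labelled knockout and 2.06 in the control.

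Cells with at least 3 UMIs of Acta2 and Tagln numbered 13 of 1932 in the library labelled knockout (0.673%, 0.359 to 1.15) and 38 of 2437 in the control (1.56%, 1.11 to 2.13). Other genes that led in these cells in both libraries included Mgp, Stmn2, Myl9, Prkcdbp and Cnn2. Myl9, a smooth muscle myosin light chain, had 923 CPM in them and 68.0 CPM in cells with neither gene in the library labelled knockout. In the control it had 518 CPM in them and 77.5 CPM in cells with neither gene. None of the pericyte trio was among the leading genes there. Kcnj8 was still higher in these cells. It had 179 CPM against 81.2 CPM in cells with neither gene in the library labelled knockout, with overlapping intervals. In the control it had 237 against 90.8 CPM, without overlap. Rgs5 was lower in these cells of both libraries, with overlapping intervals. Abcc9 could not lead, as it had 35.1 CPM in these cells of the control, below the 50 CPM required.

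Cells with at least 2 of the trio were led, after the trio itself, by Ebf1, Gstm1, Ntrk2 and Pde3a. Ebf1, a transcription factor, had 96.1 CPM in them and 37.7 CPM in cells with none of the trio in the library labelled knockout. In the control it had 172 CPM in them and 79.4 CPM in cells with none of the trio. Neither Acta2 nor Tagln could be among the 12 leading genes, as neither had 50 CPM in these cells of both libraries. In the library labelled knockout Acta2 had 36.8 CPM in them and 33.5 CPM in cells with none of the trio. In the control it had 75.4 against 49.7 CPM, and in both libraries the intervals overlap. Tagln had 16.4 against 14.5 CPM in the library labelled knockout and 24.1 against 18.5 CPM in the control. Only Ebf1 and Gucy1a3 were among the 12 leading genes of both selections, and each list includes its own selecting genes.

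Clustered over both libraries, the mesenchyme gave no single mural cluster by the markers used. A cluster counted as mural-like when at least 3 mural markers were detected, at least 1 was among its 10 leading genes, and no other class had more there. The rule was met by 4 of 13 clusters, holding 1254 cells of both libraries, so it did not single one out. In the control library clustered alone, 1 cluster of 27 cells met it. Clusters 2 and 10 met it through Kcnj8 and Abcc9 and cluster 4 through Pdgfrb, and all 3 are large.

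The fourth, cluster 7, held 15 cells, 6 of the library labelled knockout and 9 control cells. Its leading genes were Thy1, Fam162b, Ndufa4l2, Acta2, Tagln2, Ebf1, Lpl, Col4a2, Rhoj and Ung. It had 431 CPM of Acta2, 51.6 of Cspg4 and 51.6 of Mcam, with 9.38 of Pdgfra. These genes helped to form the cluster, so the values describe it and test nothing. A cluster with similar leading genes, Ndufa4l2, Heyl and Acta2 among them, held 38 to 42 cells at resolution 2.0, with another seed and without cell cycle genes, and was that cluster in the control library alone. Their leading genes also include Plvap. None appeared in the library labelled knockout alone.

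A small group was then defined without the members, by at least 3 of 7 other pericyte genes (Notch3, Higd1b, Ndufa4l2, Cox4i2, Gja4, Heyl and Foxs1). This definition was chosen after the clusters had been seen. It held 16 of 1956 mesenchyme cells in the library labelled knockout (0.818%, 0.468 to 1.32) and 16 of 2464 in the control (0.649%, 0.372 to 1.05). The product of the single shares gives 2.11 cells in the library labelled knockout and 1.44 in the control. These 7 genes were counted without thinning, unlike the co-detection above, and met in more cells than the product gives. The part of uneven depth in that excess was not tested. The small-group cells are deeper. Their median was 10737.5 UMIs against 7392.5 in the rest of the library labelled knockout, and 14275.5 against 6088 in the control. Unassigned cells passed no gate and had fewer than 3 collagen UMIs. At least 3 of the 7 were seen in 2 of 278 of them (0.719%) in the library labelled knockout and 2 of 317 (0.631%) in the control. Of epithelial cells 1 of 425 in the library labelled knockout had them and none in the control. Mesothelial, endothelial, neural and immune cells had none.

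Acta2, Cspg4, Mcam and Kcnj8 were higher in the small group. Acta2 had 360 CPM in the small group and 33.2 CPM in other mesenchyme cells of the library labelled knockout. In the control it had 1036 CPM in the small group and 47.7 CPM in the rest. The whole interval of the small group lies above that of the rest in both libraries. Cspg4 had 25.4 CPM in the small group against 5.10 CPM in the rest of the library labelled knockout, and 65.9 against 5.53 CPM in the control. Mcam had 20.3 CPM in the small group against 2.85 CPM in the rest of the library labelled knockout, and 43.9 against 3.92 CPM in the control. Kcnj8, the channel pore, had 289 against 76.1 CPM in the library labelled knockout and 242 against 86.4 CPM in the control. Tagln had 45.7 CPM in the small group against 16.7 CPM in the rest of the library labelled knockout, and 171 against 18.8 CPM in the control. In the library labelled knockout the Cspg4 and Mcam values rest on 5 and 4 UMIs, and 3 of the 4 Mcam UMIs were in 1 cell. With Notch3 not counted, the small group of the library labelled knockout held 5 cells. Kcnj8 then had 90.9 CPM in them against 78.8 CPM in the rest, with overlapping intervals, and Mcam had 15.1 against 3.02 CPM on 1 UMI, with overlapping intervals too. Acta2 had 197 against 36.7 CPM and Cspg4 had 75.7 against 5.06 CPM, both without overlap. The small-group values here come from 5 cells, and the intervals leave out differences between cells.

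Rgs5 and Pdgfrb did not mark the small group in the same way. Rgs5 had 168 CPM in it against 148 CPM in other mesenchyme cells of the library labelled knockout, and 105 against 132 CPM in the control. Pdgfrb had 86.3 CPM in it against 72.3 CPM in the rest of the library labelled knockout, and 202 against 145 CPM in the control. Abcc9 had 35.5 CPM in it against 29.1 CPM in the rest of the library labelled knockout, with overlapping intervals, but 96.6 against 27.5 CPM in the control, without overlap. Pdgfra had 20.3 against 64.0 CPM in the library labelled knockout and 30.7 against 60.8 CPM in the control, on 4 and 7 UMIs there. Its intervals overlap in the control, where 31.2% of small-group cells and 31.0% of the rest had a UMI of it, and do not overlap in the library labelled knockout. The intervals of Rgs5 and Pdgfrb overlap those of the rest in both libraries.

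The endothelial markers Pecam1, Cdh5 and Kdr had 0 UMIs in the small group of both libraries. Pecam1 and Cdh5 form the endothelial gate with Emcn and Cldn5. Cells with 3 or more UMIs of that gate were not counted as mesenchyme, so low values of its genes were largely fixed by selection. Of 8 endothelial markers 1 was detected in the library labelled knockout (Egfl7) and 2 in the control (Egfl7 and the gate gene Emcn). Their summed level was 55.8 CPM in the small group and 29.7 CPM in the rest of the library labelled knockout, on 11 UMIs in the small group. In the control it was 26.3 CPM in the small group and 27.6 CPM in the rest. Plvap, known from endothelium, was seen in 3 of 16 small-group cells and 2.73% of the rest in the library labelled knockout, and in 8 of 16 small-group cells and 2.66% of the rest in the control. Mitotic markers summed to 223 CPM in the small group against 826 CPM in the rest of the library labelled knockout, and 1664 against 761 CPM in the control, and the part of either list in the values was not tested. Basement membrane collagens Col4a1 and Col4a2 were higher in the small group of both libraries, Col4a1 at 168 against 33.5 CPM in the library labelled knockout and 369 against 44.1 CPM in the control.

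The 32 small-group cells were not 1 cluster. Cluster 7 held 5 cells of the library labelled knockout and 2 control cells, cluster 9 held 6 of the library labelled knockout and 3 control cells, and cluster 6, led by histone and division genes, held 1 of the library labelled knockout and 8 control cells. The rest lay in clusters 4, 8 and 10. At this depth and cell number few cells met the rule of at least 3 of the 7 genes. That they carry several pericyte genes was fixed by the rule, and whether they are pericytes was not tested. The levels of Rgs5 and Pdgfrb did not separate them from the rest.

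**Figure D4:**
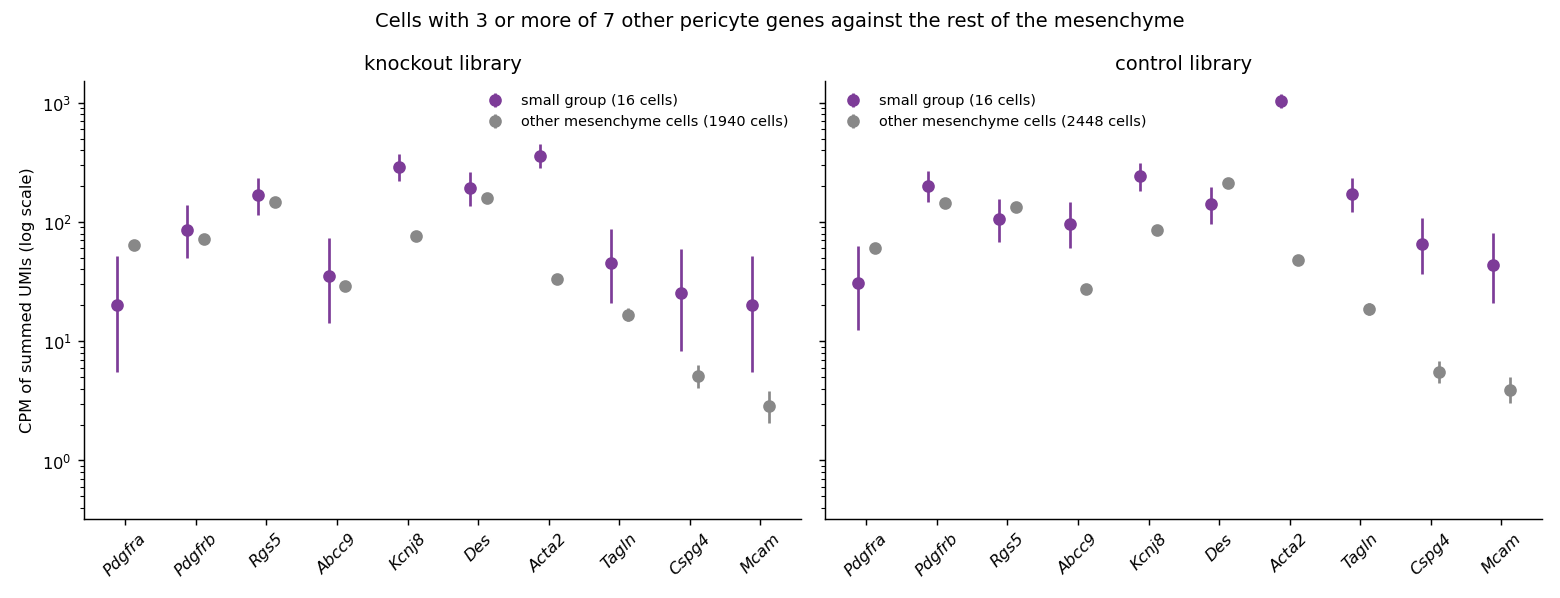
Level of the 10 members (CPM, log axis) in cells with at least 3 of 7 other pericyte genes and in the other mesenchyme cells, with 95% Poisson intervals, library labelled knockout on the left. Acta2, Cspg4 and Mcam lie above the rest in both libraries, Rgs5 overlaps it in both, and Pdgfra lies below it in the library labelled knockout and overlaps it in the control.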

How the data were processed

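Single-cell libraries of 1 pancreas labelled knockout and 1 control pancreas (embryonic day 13.5) were analysed, grouped by sample title. The deposited matrices hold raw UMI counts per gene and barcode. Cell Ranger, Seurat 2 and Seurat 3 and the build GRCm38 (mm10) are named in the submitters' processing notes. A Cell Ranger version was not given in the sources used here. Members and gene lists were chosen with earlier results of these data known.

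Cells needed at least 500 genes, at least 1000 UMIs, at most 10% mitochondrial and at most 20% haemoglobin UMIs, which left out 41 barcodes of the library labelled knockout and 36 of the control. The highest-scoring 0.8% per 1000 barcodes were removed as doublets (scanpy 1.11.5, scrublet), 74 cells of the library labelled knockout and 122 of the control. Cells with 3 or more UMIs of 1 lineage's gate were assigned to it (epithelium, endothelium, mesothelium, immune, neural). Cells passing no gate, with fewer than 3 UMIs of Col3a1 and Col1a2, were left unassigned. They numbered 278 (9.49%) of the library labelled knockout and 317 (8.47%) of the control. Cells passing several gates were left out.

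UMIs were summed per library and group and given as CPM with exact Poisson intervals. Shares have Clopper-Pearson intervals, and ratios are log2 of (CPM + 5). Where no UMI was seen, 3 counts of the total were taken as the upper limit. All intervals and limits cover counting error alone. Mesenchyme was clustered on 2000 variable genes, 30 components and 15 neighbours with the Leiden method at resolution 1.0. No test between groups was run, since each has 1 library. The calculation of the ratios and their intervals was checked on simulated counts with known folds. Alternatives changed the cell filters, gates, doublet rate, pseudocount, scaling (edgeR 4.0.16 TMM factors among them), thinning and clustering. Genes named as leading were the 12 highest by the smaller log2 ratio of both libraries with at least 50 CPM; genes of the small group and of clusters were named after their values were seen. Promoter sequences are from RefSeq. Pdgfrb and Tagln have none printed. Gene positions are from GENCODE M21 on GRCm38. Whether counting used the strand is not stated in the labels, and Pdgfra, Abcc9, Des, Tagln and Mcam overlap annotated genes on the opposite strand.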

Additional observations from a re-analysis of the deposited data

Results flagged for a closer look

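The ratio of Rgs5, knockout over control, had opposite signs in parts of the mesenchyme. Its log2 ratio was 0.29 in other mesenchyme (fold 1.23, 1.15 to 1.32) and -0.45 in Lum-high cells (fold 0.720, 0.580 to 0.891). Kcnj8 ran the other way, with a log2 ratio of 0.39 in Lum-high cells (fold 1.33, 1.08 to 1.64), -0.22 in Isl1-positive cells (fold 0.853, 0.740 to 0.984) and -0.31 in other mesenchyme (fold 0.795, 0.717 to 0.882). Within mesenchyme clusters, which the libraries filled unevenly, Rgs5 was higher in the library labelled knockout in 12 of 12. In cluster 1 this rests on 2 UMIs in the library labelled knockout and 1 in the control. The intervals cover counting error alone, and with 1 library per group the difference was not tested.

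Pdgfrb was higher in the library labelled knockout in mesenchyme cluster 9, with a log2 ratio of 0.81 on 70 UMIs in the library labelled knockout and 34 in the control, against the direction in mesenchyme as a whole. This difference between clusters was not tested.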

How the results depend on the processing

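No paired analysis was possible because each group has 1 library. The median log2 ratio of the members lay between -0.25 and -0.11 over 18 alternatives. The count of called members was 2 in 15 of 16 alternatives and 1 with mean CPM over cells, where Acta2 came to -0.47; the cause was not tested. Pdgfrb lay between -1.003 and -0.754 in all 16. Of the alternatives, 1 was chosen after seeing the data (leaving out cells with Krt19 and Krt7), as were those of the small group. Shares of cells moved with depth by construction. Without thinning, at least 2 of the trio were seen in 24.5% of cells of the library labelled knockout and 21.2% in the control, Acta2 and Tagln at 3 or more in 3.78% (knockout-labelled) and 4.46% (control), and Pdgfrb in 42.5% (knockout-labelled) and 53.6% (control) of Pdgfra-positive cells. Thinned to 5000 UMIs these shares were 15.5%, 1.80% and 32.1% in the library labelled knockout and 15.5%, 3.35% and 44.6% in the control. With at least 10 collagen UMIs the control shares were 2.79% for Acta2 and Tagln and 25% for the receptors. Mural-like clusters numbered 0 at resolution 0.5, 6 at resolution 2.0, 3 with another seed, 4 without cell cycle genes, 2 in the library labelled knockout alone and 1 in the control alone. With at least 2 of 7 genes the small group made up 3.48% of mesenchyme in the library labelled knockout and 2.64% in the control. That rule was also met by 4.94% of epithelial cells in the library labelled knockout and 1.11% in the control. In the control it was met by 2 of 27 endothelial and 3 of 34 neural cells. In the library labelled knockout it was met by 0 of 31 endothelial and 0 of 46 neural cells. With Notch3 not counted the small group made up 0.256% of mesenchyme in the library labelled knockout. Members at a few CPM, such as Cspg4 and Mcam, are limited by their UMIs.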

Other observations

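Over the 11 compared clusters without cluster 1, Pdgfrb lay between 56.1 and 112 CPM in the library labelled knockout and between 39.1 and 213 CPM in the control. Without cluster 9 the lowest control value was 96.7 CPM. The highest control value was in cluster 4, led by Hotairm1, Ccnd2 and Dkk2, with 100 UMIs in the library labelled knockout and 476 UMIs in the control. These are values of 1 library each and were not tested.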
